A study of Homo sapiens with 6 samples.

Results

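The genes described here encode the mitochondrial ribosomal proteins, and their probe sets were chosen as those whose array annotation gives exactly 1 gene symbol that starts with MRPL or MRPS followed by a number. The rule took 162 of the 39219 probe sets of the value table. Of these, 2 belong to MRPL20-AS1, an antisense RNA that makes no ribosomal protein, and the other 160 belong to 74 protein genes, 47 with a large subunit symbol (95 probe sets) and 27 with a small subunit symbol (65 probe sets). All 160 passed the filters applied here, so no member was lost to these. Any member removed earlier by the study's own filter on low signal could not be seen. Another 4 probe sets that name a mitochondrial ribosomal protein beside a further entry were left out by the rule. PANC-1, an established human pancreatic cancer cell line, was treated with anlotinib, an inhibitor of several receptor tyrosine kinases, at 5.535 μM for 48 h (3 samples) or with DMSO, the solvent, as control (3 samples), and total RNA was read on Affymetrix PrimeView arrays. The dose is the one the study gives as the IC50 of this line, and a single line at a single dose and time was profiled. Neither the labels nor the methods say that the 3 samples of a group came from separate cultures, so the p-values measure only the spread between these samples.

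Mitochondria carry their own ribosome, which translates the few messenger RNAs encoded by mitochondrial DNA, all of them for subunits of the respiratory chain and ATP synthase. Its ribosomal RNAs are made inside the organelle, while every one of its proteins is encoded in the nucleus, made in the cytosol and imported. Some of these proteins have counterparts in bacterial ribosomes and others are found only in mitochondria. The large subunit joins amino acids and holds the tunnel through which the new chain leaves, and the small subunit reads the messenger RNA.

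Values were deposited as log2 signals, and each gene was read at the probe set whose mean over the 6 arrays was highest, called its brightest. A gene is called higher or lower where limma's moderated test gave a false discovery rate (FDR) under 0.05 after adjustment over all 39063 tested probe sets. Signals are relative to the other transcripts on an array, so fewer cells with a transcript and less of it per cell cannot be told apart. Array medians lay between 7.71 and 7.77, and arrays correlated at 0.998 within a group and 0.978 between groups. The difference between the 3′ and 5′ GAPDH controls averaged -0.35 ± 0.03 log2 units in anlotinib arrays and -0.34 ± 0.03 in DMSO arrays (SD, n = 3 each, exact two-sided permutation p = 0.6), and that of ACTB -0.09 ± 0.02 in anlotinib arrays and -0.14 ± 0.03 in DMSO arrays (p = 0.1 by the same exact test, the smallest that 3 against 3 can give). The ductal markers KRT7, KRT8, KRT18, KRT19 and MUC1 were all measured, at mean signals of 7.69 to 14.02 in anlotinib arrays and 7.95 to 14.59 in DMSO arrays, and all 5 were down-regulated. The 9 measured markers of leukocytes, endothelium, fibroblasts and acinar or endocrine cells had mean signals of 4.43 to 6.53 in anlotinib arrays and 4.71 to 6.55 in DMSO arrays, all below the lowest array median.

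Anlotinib moved the mitochondrial ribosomal protein genes in both directions and by small amounts. Of the 74 genes, 24 were up-regulated, 25 were down-regulated and 25 did not pass the test, against 25.4% of the 15253 tested genes called higher and 29.7% called lower. None was called at a fold change of at least 2 with an FDR under 0.05, a limit that 4.01% of the tested genes passed. The median change of the 74 genes was -0.01 on the log2 scale, beside -0.04 for all tested genes, and their changes ran between -0.53 and 0.97. The median absolute change was 0.22 log2 units, beside 0.20 for all tested genes. In 62 of the 74 genes (83.8%) the anlotinib and the DMSO arrays did not overlap, against 62.1% of all tested genes. Members lay at signals of 8.43 to 12.87 in all 6 arrays, well above the dimmest probe sets of the table, and the part of signal in that share was not tested.

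Both subunits held genes that rose and genes that fell, and they are set side by side here by counts and medians with no test. Of the 47 large subunit genes, 14 were up-regulated, 16 were down-regulated and 17 did not pass, and of the 27 small subunit genes, 10 were up-regulated, 9 were down-regulated and 8 did not pass. The median change was 0.01 in the large subunit, with the middle of the distribution between -0.20 and 0.22 (lower and upper quartile), and -0.02 in the small subunit, between -0.21 and 0.29. Set against the mean of the DMSO arrays, the median large subunit gene stood at -0.03, 0.00 and 0.05 in the 3 anlotinib arrays and at 0.01, 0.00 and -0.02 in the 3 DMSO arrays. The median small subunit gene stood at -0.02, -0.01 and 0.01 in the anlotinib arrays and at 0.01, 0.01 and -0.01 in the DMSO arrays. The anlotinib and DMSO arrays therefore overlapped in the median of either subunit, although the arrays of most single genes did not overlap. Groups stood apart in 42 of 47 large and 20 of 27 small subunit genes. MRPS30 and MRPS18A carry small subunit symbols while their proteins sit in the large subunit, and counting them there gave 15 higher and 17 lower of 49 large subunit genes and 9 higher and 8 lower of 25 small subunit genes.

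**Figure D1:**
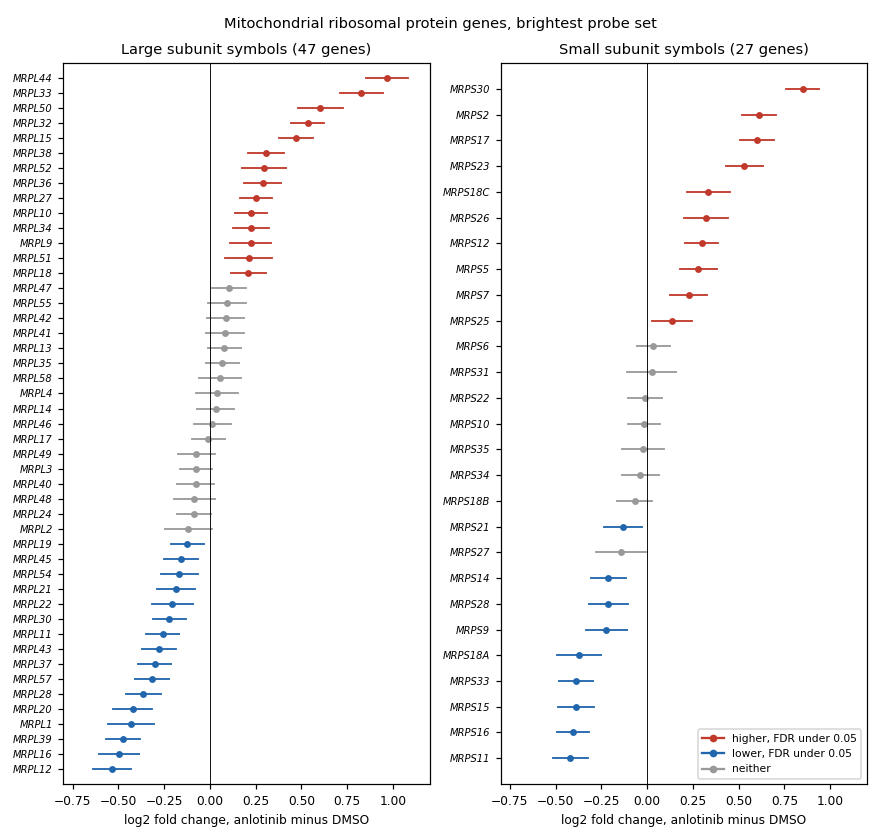
log2 fold change of anlotinib over DMSO for each of the 47 large (left) and 27 small (right) subunit genes at the brightest probe set, ordered by size. Points are the limma estimates, bars their 95% confidence intervals and colours the call. The large subunit has 14 up-regulated and 16 down-regulated genes, the small subunit 10 and 9, and no gene reaches a change of 1.

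MRPL44, which sits near the exit of the peptide tunnel and carries a ribonuclease III fold, had the largest change of all members. MRPL44 had log2 signals of 11.04, 11.10 and 11.02 in anlotinib arrays, against 10.02, 10.14 and 10.10 in DMSO arrays. Every anlotinib array stood above every DMSO array by most of a log2 unit, and the fitted change was 0.97 ± 0.05 (SE, adjusted p = 6.11e-06 by limma), a fold of 1.96. MRPS30, one of the proteins found only in mitochondria, came next. MRPS30 had log2 signals of 11.25, 11.26 and 11.27 in anlotinib arrays, against 10.41, 10.44 and 10.39 in DMSO arrays. Replicates of either group lay within a few hundredths of a log2 unit of their mean, and the change was 0.85 ± 0.04 (SE, adjusted p = 4.05e-06 by limma). MRPL33, a small protein with a bacterial counterpart, changed by 0.83 ± 0.05 (SE, adjusted p = 1.27e-05 by limma). MRPL33 had log2 signals of 10.47, 10.46 and 10.58 in anlotinib arrays, against 9.65, 9.72 and 9.66 in DMSO arrays. Its other 2 probe sets moved the same way, by 0.65 and 0.96. These 3 genes and MRPS2, MRPL50 and MRPS17 were the 6 members past 1.5-fold at their brightest probe sets, all of them upward. Read the same way, 2300 of all 15253 tested genes changed by at least 1.5-fold in either direction. Of all 39063 tested probe sets, 6141 passed that limit. Over every probe set of the members, 20 of 160 passed it, and not all upward. Dimmer probe sets fell past it in MRPL19 (-0.80) and MRPL30 (-0.86), while others rose past it, such as 1 of MRPS12 (0.87).

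Among the remaining large subunit genes, MRPL50, found only in mitochondria, was up-regulated by 0.60 ± 0.05 (SE, adjusted p = 5.93e-05 by limma). MRPL50 had log2 signals of 9.18, 9.25 and 9.35 in anlotinib arrays, against 8.64, 8.66 and 8.67 in DMSO arrays. Its second probe set, dimmer at a mean signal of 5.99, gave a change of 1.14. MRPL32, which in mice is cut by an inner membrane protease before it joins the ribosome, rose by 0.53 ± 0.04 (SE, adjusted p = 2.5e-05 by limma), with signals of 11.35, 11.30 and 11.35 in anlotinib arrays and 10.79, 10.80 and 10.80 in DMSO arrays. MRPL15, a core protein with a bacterial counterpart, rose by 0.47, MRPL38 and MRPL52 of the central protuberance by 0.31 and 0.30, and MRPL36, a small bacterial-type protein, by 0.29. Their anlotinib and DMSO arrays did not overlap. The other up-regulated large subunit genes, MRPL27, MRPL10, MRPL34, MRPL9, MRPL51 and MRPL18, changed by 0.21 to 0.25. The only probe set of MRPL34 can, by its name, hybridize to other transcripts. Of the 4 probe sets of MRPL9, which ran from -0.18 to 0.28, only the brightest passed. The call of MRPL9 was lost at the median of its probe sets (0.12).

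The largest decrease among all members was that of MRPL12, a protein of the stalk that calls in translation factors, and which has also been described as a partner of the mitochondrial RNA polymerase. MRPL12 had log2 signals of 10.90, 10.85 and 10.91 in anlotinib arrays, against 11.47, 11.42 and 11.38 in DMSO arrays. The change was -0.53 ± 0.04 (SE, adjusted p = 4.71e-05 by limma), and its second probe set gave -0.50. MRPL16, which lies beside the catalytic centre, fell by 0.49 ± 0.05 (SE, adjusted p = 8.82e-05 by limma). MRPL16 had log2 signals of 10.51, 10.53 and 10.62 in anlotinib arrays, against 11.08, 11.02 and 11.04 in DMSO arrays. The groups stood apart for both genes. MRPL39, a mitochondrial protein near the tunnel exit, changed by -0.48, MRPL1, which forms the mobile stalk where spent transfer RNA leaves, by -0.43, MRPL20, a protein that binds ribosomal RNA early in assembly, by -0.42, and MRPL28 by -0.36. The brightest probe set of MRPL20 can, by its name, hybridize to other transcripts, and without such probe sets the change was -0.18 (adjusted p = 0.098 by limma) and did not pass. The 2 probe sets of MRPL20-AS1, whose gene lies antisense to MRPL20, gave -0.69 and -0.70. The other 10 down-regulated large subunit genes changed by -0.32 (MRPL57) to -0.12 (MRPL19). The call of MRPL19 (adjusted p = 0.0284 by limma) was lost without anlotinib 1 (-0.12), anlotinib 2 (-0.12), DMSO 1 (-0.11) or DMSO 2 (-0.12).

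Of the small subunit genes, MRPS2, a bacterial-type protein that joins late in assembly in bacteria, was up-regulated by 0.61 ± 0.04 (SE, adjusted p = 1.71e-05 by limma). MRPS2 had log2 signals of 10.33, 10.29 and 10.34 in anlotinib arrays, against 9.73, 9.72 and 9.68 in DMSO arrays. MRPS17, another bacterial-type protein, changed by 0.60 ± 0.04 (SE, adjusted p = 2e-05 by limma) at its brightest probe set, with signals of 11.16, 11.16 and 11.23 in anlotinib arrays and 10.60, 10.57 and 10.58 in DMSO arrays. The next probe set gave 0.59, while the 2 dimmest gave 0.06 and 0.00 and did not pass. The array's naming marks all but the dimmest as able to hybridize to other transcripts, so the increase of MRPS17 rests on marked probe sets. MRPS23 rose by 0.53 ± 0.04 (SE, adjusted p = 4.94e-05 by limma), with signals of 11.79, 11.78 and 11.84 in anlotinib arrays and 11.27, 11.32 and 11.22 in DMSO arrays. MRPS18C, MRPS26 and MRPS12, the last of these a protein of the decoding centre, rose by 0.33, 0.32 and 0.30, and MRPS5, MRPS7 and MRPS25 by 0.28, 0.23 and 0.14. The call of MRPS25 (adjusted p = 0.041 by limma) was lost without anlotinib 1 (0.11), anlotinib 2 (0.15), anlotinib 3 (0.15), DMSO 1 (0.14) or DMSO 3 (0.11).

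MRPS11, which helps to form the platform beside the messenger RNA exit, was the lowest small subunit gene. MRPS11 had log2 signals of 10.44, 10.44 and 10.39 in anlotinib arrays, against 10.81, 10.84 and 10.87 in DMSO arrays. The change was -0.42 ± 0.04 (SE, adjusted p = 0.000101 by limma). MRPS16, MRPS15, MRPS33 and MRPS18A fell by close amounts at their brightest probe sets, with changes of -0.41, -0.39, -0.39 and -0.37. The other probe set of MRPS15 gave 0.26 and did not pass. MRPS16 had signals of 11.43, 11.41 and 11.44 in anlotinib arrays and 11.86, 11.82 and 11.82 in DMSO arrays, and MRPS33, a protein of the head, signals of 10.69, 10.70 and 10.73 in anlotinib arrays and 11.12, 11.07 and 11.09 in DMSO arrays. MRPS9, MRPS28, MRPS14 and MRPS21 changed by -0.22, -0.21, -0.21 and -0.13. The call of MRPS21 (adjusted p = 0.0348 by limma) was lost without anlotinib 1 (-0.13), anlotinib 2 (-0.12), DMSO 1 (-0.12) or DMSO 2 (-0.12).

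**Figure D2:**
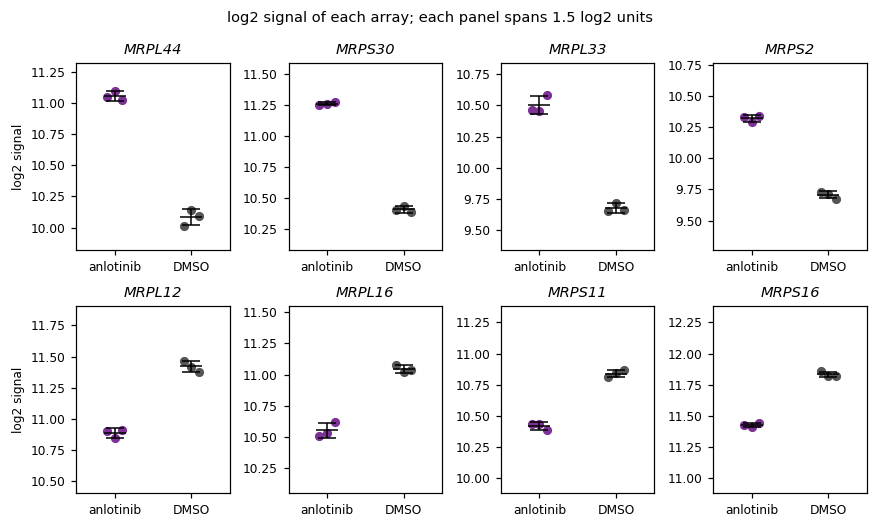
log2 signal of 8 members in each of the 3 anlotinib arrays (left in each panel) and the 3 DMSO arrays (right), with the mean and SD as bars. Panels differ in position but all span 1.5 log2 units. The groups do not overlap in any panel, with anlotinib above DMSO in the upper 4 genes and below it in the lower 4.

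The 3 paralogs of the MRPS18 family, which arose from 1 ancestral protein, differed in their calls. MRPS18A averaged 9.87 ± 0.03 in anlotinib and 10.25 ± 0.08 in DMSO arrays (a change of -0.37), MRPS18B 10.86 ± 0.04 in anlotinib and 10.92 ± 0.02 in DMSO arrays (a change of -0.07, adjusted p = 0.187 by limma) and MRPS18C 11.44 ± 0.08 in anlotinib and 11.10 ± 0.02 in DMSO arrays (a change of 0.33). The 95% confidence intervals of MRPS18A (-0.49 to -0.25) and MRPS18C (0.22 to 0.45) do not overlap, while the difference between the paralogs was not itself tested. These are values of the brightest probe sets. The second probe set of MRPS18A gave -0.07 and did not pass. The 3 probe sets of MRPS18C ran from 0.08 to 0.33, and 2 of them passed.

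The counts by place in the ribosome are read beside the 25.4% of all tested genes called higher and the 29.7% called lower. The 4 stalk genes all passed the test, with MRPL10 at 0.23 and MRPL11, MRPL12 and MRPL54 at -0.26, -0.53 and -0.17. Of 8 genes of the central protuberance, 3 were up-regulated and 0 were down-regulated at their brightest probe sets. They were MRPL38, MRPL52 and MRPL18, the last of these with a counterpart beside the 5S RNA of bacteria. MRPL58, a peptidyl-tRNA hydrolase built into the ribosome, did not pass, with a change of 0.05. MRPL48, also of the central protuberance, did not pass at its brightest probe set (-0.085). Its other probe set gave -0.17 and passed as lower. Of 7 genes around the tunnel exit, MRPL44 was up-regulated and MRPL39, MRPL22 and MRPL45 were down-regulated, so that neighbours in the structure had the largest increase of all members and the third lowest change. Of 5 genes near the catalytic centre, MRPL27 rose and MRPL16 fell, while MRPL2, MRPL3 and MRPL4 did not pass. In the head of the small subunit MRPS7 rose, MRPS9, MRPS14 and MRPS33 fell, and MRPS10, MRPS31 and MRPS35 did not pass. Genes assigned a bacterial counterpart passed in 33 of 45 cases (73.3%), 15 higher and 18 lower. Genes assigned as mitochondrial passed in 16 of 29 (55.2%), 9 higher and 7 lower, beside 55.1% of all tested genes. MRPS18B was counted as mitochondrial by its name in the current nomenclature, although it belongs to a family with a bacterial counterpart. MRPS18A and MRPS18C of that family were counted as bacterial, so this family was not split by 1 rule. The places and origins are textbook assignments and the groups are small, so that these counts describe the genes and carry no test.

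At their brightest probe sets, the members that changed least were MRPL17 and MRPL46 in the large subunit, at -0.01 and 0.01, and MRPS22 and MRPS10 in the small subunit, at -0.01 and -0.02. MRPS22 had log2 signals of 11.27, 11.29 and 11.32 in anlotinib arrays, against 11.28, 11.30 and 11.33 in DMSO arrays. The arrays of the groups overlapped. The 95% confidence interval of MRPS22 ran over -0.10 to 0.08 and that of MRPL17 over -0.10 to 0.08. A second probe set of MRPS10 gave -0.16 and passed (adjusted p = 0.0131 by limma), and that of MRPL17 gave 0.21 and did not (adjusted p = 0.0534).

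Probe sets of the same gene gave different values in part of the genes. Over all 160 probe sets, 50 were higher and 52 were lower, against 28.3% and 28.3% of the tested probe sets. Of the 44 genes with more than 1 probe set, all probe sets passed in 1 direction in 19, some passed in 1 direction in 15, none passed in 7, and probe sets passed in both directions in 3, MRPS11, MRPL20 and MRPS21. MRPS11 had 3 bright probe sets at -0.42, -0.29 and -0.31, whereas a dimmer one had signals of 8.41, 8.36 and 8.47 in anlotinib arrays, against 7.26, 7.39 and 7.37 in DMSO arrays, a change of 1.07 (adjusted p = 5.71e-06 by limma). That probe set and the dim one of MRPL50 made 2 of the 74 genes called at a fold of at least 2 at any probe set, against 6.06% of all tested genes. MRPL20 gave -0.42 at its brightest probe set and 0.35 at its dimmest, whose mean signal was 6.79. MRPS21 gave -0.13 and -0.16 at its 2 brightest and 0.69 at its dimmest, where signals were 10.15, 10.08 and 10.19 in anlotinib arrays and 9.45, 9.47 and 9.45 in DMSO arrays.

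In other genes probe sets differed in the size of the change. MRPL19 gave -0.12 at a mean signal of 11.80 and -0.80 at 9.06, MRPL30 gave -0.22, 0.00 and -0.86, and MRPS12 gave 0.30 at its brightest probe set and 0.66 and 0.87 at the next ones, while its dimmest (-0.16) did not pass. MRPL4 did not pass at its brightest probe set (0.04) and gave 0.80 at a dimmer one. Where in the transcript each probe set lies was not analysed here. For 30 genes the array holds 1 probe set by the rule and no such comparison was possible, and 2 probe sets of MRPL45 hold identical values.

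**Figure D3:**
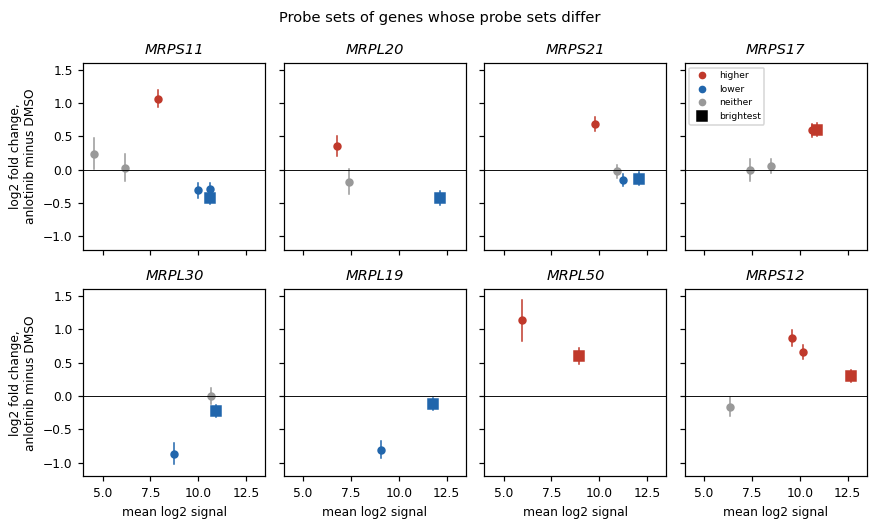
log2 fold change (anlotinib minus DMSO, with 95% confidence intervals) of every probe set of 8 genes against its mean log2 signal over the 6 arrays. Squares mark the brightest probe set and colours the call. MRPS11, MRPL20 and MRPS21 have called probe sets on both sides of 0.

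Proteins of the cytosolic ribosome, which translates the messenger RNAs of the nucleus, were counted for comparison. Of 72 genes with a cytosolic ribosomal protein symbol, 9 were higher (12.5%), 13 were lower (18.1%) and 50 did not pass. Of all tested genes, 25.4% were higher and 29.7% were lower. The median absolute change of the cytosolic genes was 0.08 log2 units, beside 0.22 in the mitochondrial genes and 0.20 in all tested genes. Many cytosolic genes lay at signals of 14 to 15, close to the highest value of the table, 15.16, and the part of that in their small changes was not tested.

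**Figure D4:**
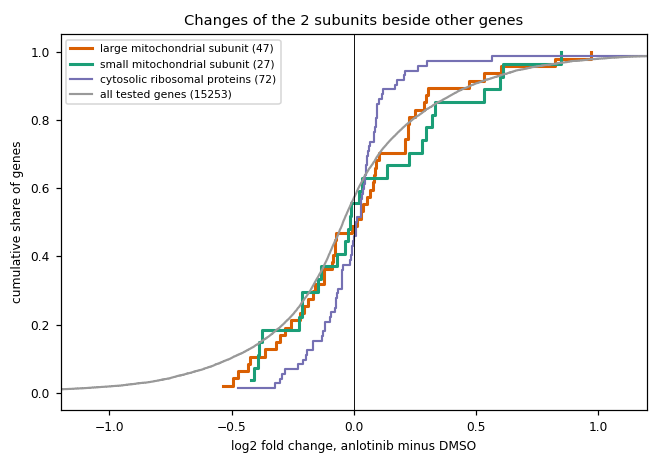
Cumulative share of genes (vertical axis) up to each log2 fold change of anlotinib over DMSO (horizontal axis, cropped at -1.2 and 1.2) for the 2 mitochondrial subunits, 72 cytosolic ribosomal protein genes and all 15253 tested genes. The large and small subunit lines cross repeatedly around medians of 0.01 and -0.02, and the cytosolic line is the steepest.

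Other nuclear genes that serve mitochondrial translation were counted from lists. OXA1L, the inner membrane insertase that docks at the tunnel exit and is itself no ribosomal protein, changed by -0.39. Among the ribosomal proteins with other symbols, DAP3, a small subunit protein that binds GTP, changed by -0.17 and CHCHD1 by 0.24, while PTCD3 (0.00) and GADD45GIP1 (-0.02) did not pass. Of 27 genes for assembly of the ribosome and modification of its RNA, 6 were up-regulated (22.2%) and 11 were down-regulated (40.7%), against 25.4% and 29.7% of all tested genes. TFB1M, which dimethylates the small ribosomal RNA, averaged 9.49 ± 0.03 in anlotinib and 10.35 ± 0.03 in DMSO arrays, a change of -0.86 ± 0.04 (SE, adjusted p = 4.4e-06 by limma), and RBFA, which also acts on the small subunit, changed by -0.57. DHX30, an RNA helicase, and FASTKD2, which binds the large ribosomal RNA, changed by 0.66 and 0.60. Of 13 translation factors, 4 were higher (30.8%) and 8 lower (61.5%). The termination factor MTRF1L averaged 10.79 ± 0.03 in anlotinib and 9.85 ± 0.04 in DMSO arrays, a change of 0.95 ± 0.04 (SE, adjusted p = 3.78e-06 by limma), whereas the elongation factor GFM1 changed by -0.46, the initiation factor MTIF3 by -0.35 and LRPPRC, which stabilises mitochondrial messenger RNAs, by -0.34.

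The mitochondrial transfer RNA synthetases and their partners gave 3 of 19 genes higher and 12 lower, with a median of -0.25 (15.8% higher and 63.2% lower, against 25.4% and 29.7% of all tested genes). SARS2, EARS2, IARS2 and WARS2, which load serine, glutamate, isoleucine and tryptophan, changed by -0.71, -0.59, -0.55 and -0.54. Of 13 genes that copy, transcribe and maintain mitochondrial DNA or process its RNA, 10 were up-regulated (76.9%, against 25.4% of all tested genes) and 0 were down-regulated (against 29.7%), with a median of 0.28. TWNK, the replicative helicase, averaged 10.11 ± 0.08 in anlotinib and 9.36 ± 0.04 in DMSO arrays, a change of 0.74 ± 0.05 (SE, adjusted p = 2.34e-05 by limma). TFAM, which packs mitochondrial DNA, changed by 0.72, TFB2M, the transcription factor partner of the polymerase, by 0.68, and POLG, the DNA polymerase, by 0.44. Of 7 measured regulators of nuclear genes for mitochondria, the coactivator PPRC1 (0.80), the nuclear receptor ESRRA (0.72), MYC (0.64) and YY1 (0.42) were up-regulated and NRF1 was down-regulated (-0.39). The call of NRF1 was lost without anlotinib 1 (-0.32), anlotinib 3 (-0.37), DMSO 1 (-0.33) or DMSO 2 (-0.35), and its change was -0.02 with marked probe sets left out. GFM1 likewise stood at -0.05 without them. GABPA, a subunit of an ETS family factor, did not pass, with a change of 0.12 at its brightest probe set and -0.12 at the median of its probe sets.

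**Figure D5:**
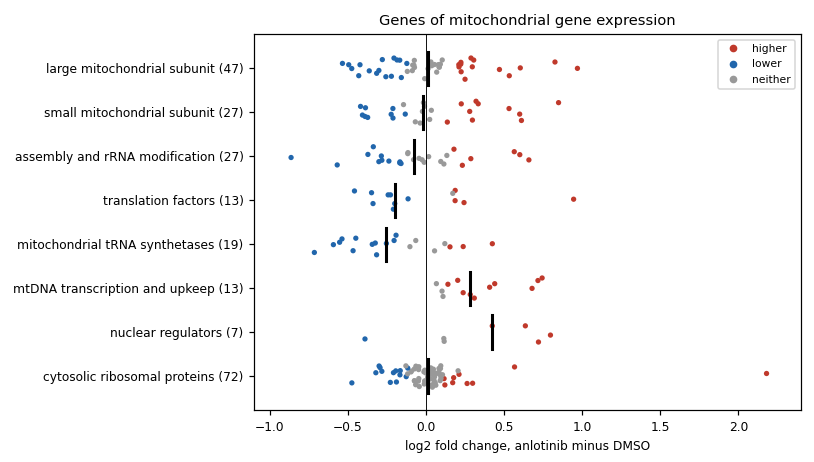
log2 fold change of each gene (points, coloured by call) in the 2 ribosomal subunits, 5 other lists of mitochondrial gene expression and the cytosolic ribosomal proteins, with the number of genes in parentheses and a black bar at the median. Points are spread vertically for legibility. The ribosomal subunits centre on 0, the synthetases on -0.25 and the mitochondrial DNA genes on 0.28.

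Promoter windows from RefSeq (GRCh38.p14), from 250 bases before to 50 after an annotated start, were found for 67 of the 74 genes, in 83 windows. A search of both strands covered 3 motifs, CCGGAAG (the core bound by ETS factors such as GABPA), AAGATGG (the core bound by YY1) and CGCATGCG (a core of NRF1 sites). The ETS core ends in the letters AAG that begin the YY1 core, and the cores shared these letters in 0 of the 83 member windows. CCGGAAG stood in 38.6% of the member windows, against 14.4% of the windows of all tested genes and 10.3% of all windows, and AAGATGG in 31.3%, against 6.38% and 5.84%. CGCATGCG stood in 3.61%, against 2.81% and 2.02%. The ETS core was found in 36.7% of the windows of up-regulated members, 41.7% of those of down-regulated members and 37.9% of the rest. The YY1 core was found in 33.3%, 25% and 34.5%. Some genes have more than 1 window. Counted by gene, the ETS core stood in 45.5% of up-regulated, 43.5% of down-regulated and 40.9% of other members. For the YY1 core the shares by gene were 40.9%, 26.1% and 36.4%, so the order of the groups depended on the unit counted. A match to such letters is a description of the sequence and does not show that a factor binds.

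The windows that follow belong to the 3 members with the largest increases, to the 2 with the largest decreases and to MRPS12, which shares its stretch with a gene that moved the opposite way. Capitals mark the ETS or the YY1 core, and all are written 5′ to 3′ on the strand of the gene. MRPL44 (chr2:223957213-223957512, plus strand) and MRPL12 (chr17:81703117-81703416, plus strand) hold none of the 3 motifs, MRPS30 (chr5:44808697-44808996, plus strand) holds a YY1 core just past the start, MRPL33 (chr2:27771469-27771768, plus strand) and MRPL16 (chr11:59810729-59811028, minus strand) hold an ETS core close to it, and MRPS12 (chr19:38930694-38930993, plus strand) holds both.
MRPL44: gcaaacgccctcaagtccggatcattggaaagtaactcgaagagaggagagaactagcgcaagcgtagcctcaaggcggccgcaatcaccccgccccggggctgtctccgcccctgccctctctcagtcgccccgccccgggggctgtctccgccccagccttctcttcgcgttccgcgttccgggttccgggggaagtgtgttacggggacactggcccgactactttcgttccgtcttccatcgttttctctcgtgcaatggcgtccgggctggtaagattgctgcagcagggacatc
MRPS30: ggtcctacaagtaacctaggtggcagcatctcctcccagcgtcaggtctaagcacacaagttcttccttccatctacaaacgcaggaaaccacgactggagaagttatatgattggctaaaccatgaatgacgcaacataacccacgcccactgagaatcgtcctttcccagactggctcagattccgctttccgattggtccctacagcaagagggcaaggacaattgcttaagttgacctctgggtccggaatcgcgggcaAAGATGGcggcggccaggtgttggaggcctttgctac
MRPL33: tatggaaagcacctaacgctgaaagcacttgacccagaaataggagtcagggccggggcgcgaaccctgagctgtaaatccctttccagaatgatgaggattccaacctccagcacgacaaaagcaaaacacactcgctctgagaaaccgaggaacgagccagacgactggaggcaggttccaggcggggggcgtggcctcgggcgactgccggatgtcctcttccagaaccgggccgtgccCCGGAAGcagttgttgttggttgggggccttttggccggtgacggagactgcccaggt
MRPL12: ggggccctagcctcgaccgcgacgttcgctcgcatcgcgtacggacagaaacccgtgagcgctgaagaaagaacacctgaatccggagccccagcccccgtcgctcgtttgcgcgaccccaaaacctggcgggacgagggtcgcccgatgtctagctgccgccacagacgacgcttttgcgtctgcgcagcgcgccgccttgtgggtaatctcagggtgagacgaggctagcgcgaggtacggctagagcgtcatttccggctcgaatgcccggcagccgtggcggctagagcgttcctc
MRPL16: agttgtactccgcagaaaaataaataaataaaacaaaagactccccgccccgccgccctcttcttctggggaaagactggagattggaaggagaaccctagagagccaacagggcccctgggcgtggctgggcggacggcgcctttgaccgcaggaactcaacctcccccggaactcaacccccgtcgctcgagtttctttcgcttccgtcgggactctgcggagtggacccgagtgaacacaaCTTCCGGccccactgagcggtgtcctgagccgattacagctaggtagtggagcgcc
MRPS12: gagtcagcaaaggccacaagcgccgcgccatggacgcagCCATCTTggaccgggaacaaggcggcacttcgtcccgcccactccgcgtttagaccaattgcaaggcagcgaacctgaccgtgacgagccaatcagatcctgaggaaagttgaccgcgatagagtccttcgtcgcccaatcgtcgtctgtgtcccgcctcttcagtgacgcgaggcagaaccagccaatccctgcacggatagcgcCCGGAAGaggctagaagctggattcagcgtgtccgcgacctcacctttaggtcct

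Genes on opposite strands whose starts point away from each other share such a stretch. Of the members, 22 had a partner of this kind, with 41 to 320 bases between the starts, and the partner was measured for 16. MRPS11 and MRPL46 are each other's partner and are both counted among these 16. Both genes passed in 8 pairs, in the same direction in 5 and in opposite directions in 3, where 55.1% of all tested genes passed singly. MRPS12 averaged 12.84 ± 0.02 in anlotinib and 12.54 ± 0.02 in DMSO arrays (a change of 0.30), whereas SARS2, whose start lies 181 bases away, averaged 9.18 ± 0.03 in anlotinib and 9.89 ± 0.04 in DMSO arrays (a change of -0.71). MRPS2 (0.61) lay beside PIERCE1 (-0.56), and MRPL30 (-0.22) beside MITD1 (0.80), where MRPL30 stood at -0.00 and did not pass with marked probe sets left out. The pairs with a shared direction were MRPL18 (0.21) with TCP1 (0.33), MRPL27 (0.25) with EME1 (0.38), MRPL50 (0.60) with ZNF189 (0.28), MRPL57 (-0.32) with SKA3 (-0.73) and MRPS18C (0.33) with HELQ (0.77). MRPS11 and MRPL46 form a pair of members with 320 bases between their starts, and MRPS11 fell (-0.42) while MRPL46 stood at 0.01 and did not pass.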

How the data were processed

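The authors deposited log2 signals of 39219 probe sets, computed with RMA, which corrects background, normalizes between arrays and summarises the probes of each set. Per the study's methods, probe sets of low signal had been filtered. Here, 73 control probe sets and 83 with a coefficient of variation over 25% within a group (linear scale) were left out, and limma's lmFit and eBayes (version 3.58.1, R 4.3.3) were fitted to all 39063 others, with Benjamini-Hochberg adjustment over all of them. Gene names came from the annotation of the array, updated through entrez identifiers (35843 of 35858 matched). The number of arrays, 3 per group, limits the precision. The members, the gene lists and the assignments to places in the ribosome were chosen with earlier results of these data known. Named were members at 2-fold at any probe set, the 6 highest and 6 lowest called genes of each subunit, the 2 that changed least, the brightest and dimmest 3, genes with discordant probe sets, genes with a structural role, and up to 4 called genes of each other list. Genes named beside these, such as the divergent partners, were chosen after their values were seen. The procedure was tested on simulated data. Alternatives were other filters, scalings, limits and probe set choices, a replicate block and each array left out. Same-numbered samples had deviations that correlated at 0.17, 0.01 and -0.14, so the numbers do not pair them.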

Additional observations from a re-analysis of the deposited data

How the results depend on the processing

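The counts in each subunit stayed within 1.5 times of those reported under other filters on the CV and on signal, other scalings, eBayes with trend and robust settings, the median over all probe sets of a gene, and each array left out. A stricter test, limma's treat against a fold of 1.2, left 9 members higher and 9 lower, 5 higher and 5 lower in the large subunit and 4 higher and 4 lower in the small one. The share of all tested genes under that test was not counted, so these numbers say nothing particular to the members. A limit of 1.5-fold in place of 2-fold called 6 of the 74 members, while 2300 of the 15253 tested genes changed by at least 1.5-fold, called or not. Without one array at a time, the median of the small subunit ran between -0.0261 and 0.0043, and it was above 0 only without DMSO 3. That of the large subunit ran between -0.0031 and 0.0379, and it was below 0 without anlotinib 2 (-0.0003) or anlotinib 3 (-0.0031). With the replicate block, 23 members were higher and 23 lower, and MRPL19, MRPS21 and MRPS25 lost their calls. With probe sets that can hybridize to other transcripts left out, 71 members were measured, and MRPL34 was not among them. In that fit MRPS17 changed to -0.0020, and the changes of MRPL20 (-0.18), MRPL30 (-0.00) and GFM1 (-0.05) no longer passed. Calls were kept without each array by 23 of 24 up-regulated and 23 of 25 down-regulated members. MRPL19, MRPS21 and MRPS25 lost theirs, while MRPL2 (-0.16) passed without anlotinib 3 and MRPS27 (-0.19) without DMSO 1. Of 1181 values for the 74 members, 1103 kept direction and side of the threshold, 53 no longer passed, 24 newly passed and 1 turned round. For 42 other named genes, 642 of 665 were kept. At the median over all probe sets, GABPA (-0.1219) and PTCD3 (0.2501) changed direction. Small changes in dim probe sets are the least certain, since precision rests on 3 arrays per group.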

Other observations

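Among the genes with a cytosolic ribosomal protein symbol, RPL27A stood apart from the rest, with log2 signals of 7.83, 7.80 and 7.75 in anlotinib arrays and 5.59, 5.49 and 5.76 in DMSO arrays, a change of 2.18 (adjusted p = 1.67e-06 by limma). This probe set was dim for such a gene, with a mean signal of 6.70, far below most of the others. Whether it reads the main RPL27A transcript was not tested. RPL13 had the lowest change, -0.47.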
